A study of Homo sapiens with 6 samples.

Results

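The genes described here encode the machinery that copies chromosomal DNA, with 4 enzymes that make its nucleotide precursors. They were a list of 53 gene symbols, chosen by function, and all 53 were found among the 20020 symbols of the count table and were among the 12856 genes with enough reads to be tested. Messenger RNA bound to IGF2BP2, a cytoplasmic RNA-binding protein described as a reader of N6-methyladenosine, was recovered by RNA immunoprecipitation (RIP) from 786-O cells and sequenced in 3 libraries. The other 3 libraries held input RNA. All 6 came from one established line, derived from a human clear cell renal carcinoma and grown in RPMI1640 with serum, and the labels name no treatment or genetic change. The study concerns m6A and TGF-β-SMAD signalling in this cancer, per its title. Comparing RIP with input asks which mRNAs are recovered more or less with IGF2BP2 than their abundance in the cells. Each ratio is RIP over input and includes whatever antibody or beads alone would recover, since no control antibody was analysed here.

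Before a cell divides, origins of replication are licensed when the origin recognition complex, CDC6 and CDT1 load the ring of MCM2 to MCM7 onto DNA. The kinase CDC7 and further factors then add CDC45 and GINS to that ring, which becomes the active helicase. Polymerase alpha with primase starts each strand, RFC loads the sliding clamp PCNA, and polymerases delta and epsilon extend the DNA while RPA covers single strands and FEN1, DNA2 and LIG1 join the lagging-strand fragments. Ribonucleotide reductase, thymidylate synthase and dUTPase set the supply of deoxynucleotides. Many of these genes are transcribed together at the start of DNA synthesis under the E2F factors.

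The libraries held 25773819 to 44045835 reads, and a member had between 74 and 12895 reads in a library. Libraries of one group correlated at a Pearson r of 0.994 to 0.995 across genes, on log2 CPM, and a RIP with an input library at 0.917 to 0.921. Whether replicates are separate cultures is not in the labels, and the p-values therefore measure only the spread between libraries, which may be technical. Of 10 markers of the renal carcinoma line 9 had a mean of at least 5 CPM, among them *PAX8* and *CDH6*, whereas none of the 5 endothelial, 5 leukocyte or 5 fibroblast markers reached that level. *CA9*, a marker of clear cell carcinoma, was the one renal marker below it.

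Promoter sequences are shown because these genes are known for a shared mode of transcription, which the list did not use. RefSeq promoters (GRCh38.p14, 250 bases before to 50 after the gene start) were matched for 46 of the 53 members. An E2F-type motif, searched on both strands as TTTGGCGC, TTTCCCGC, TTTGCCGC or TTTCGCGC, was found in 21 of the 46, which is 45.7%, against 4.44% of 15843 protein-coding promoters of the same length. A CCAAT box (CCAAT, both strands) was found in 58.7% of the members' promoters against 36.4% of all, and a GC box (GGGCGG, both strands) in 69.6% against 58.5%. In 4 members an E2F-type match overlapped a CCAAT or GC box. The 120 bases before the start are printed 5′ to 3′ for 2 members with low and 2 with high RIP ratios (the extremes among called members whose promoters could be printed), with E2F-type matches on either strand in capitals. *PCNA* and *RFC4* were depleted with IGF2BP2 and *RFC3* and *POLE4* enriched.
PCNA, chr20:5126623-5126742, minus strand: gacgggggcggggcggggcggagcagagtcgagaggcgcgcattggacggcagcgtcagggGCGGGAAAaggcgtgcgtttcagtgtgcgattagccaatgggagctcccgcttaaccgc
RFC4, chr3:186806483-186806602, minus strand: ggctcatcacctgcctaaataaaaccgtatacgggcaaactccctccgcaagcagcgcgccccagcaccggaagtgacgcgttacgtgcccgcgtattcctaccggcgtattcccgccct
RFC3, chr13:33818029-33818148, plus strand: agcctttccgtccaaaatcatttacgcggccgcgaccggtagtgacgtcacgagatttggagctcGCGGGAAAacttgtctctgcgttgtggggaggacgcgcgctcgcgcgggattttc
POLE4, chr2:74958523-74958642, plus strand: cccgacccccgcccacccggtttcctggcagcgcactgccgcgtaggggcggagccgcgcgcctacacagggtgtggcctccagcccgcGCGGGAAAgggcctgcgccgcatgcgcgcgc
*PCNA*, *RFC3* and *POLE4* carry TTTCCCGC on the opposite strand, although the mRNA of the first was lower and the mRNAs of the others higher in RIP. The motif was present in 13 of 34 depleted, 5 of 7 enriched and 3 of 5 uncalled members with a promoter. These matches describe DNA upstream of the genes, and how the recovered RNA itself differs in sequence was not examined.

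Most replication mRNAs were under-represented with IGF2BP2. Of the 53, 39 were depleted and 8 enriched at an adjusted p under 0.05 (edgeR quasi-likelihood test, Benjamini-Hochberg over all tested genes), and 6 did not pass. The depleted share was 73.6%, beside 42.0% of all 12856 tested genes, and the enriched share 15.1%, beside 40.7%. The median log2 fold change was -0.79 for the members and -0.02 for all tested genes. In 39 members every RIP library lay below every input library (42.2% of all tested genes did so) and in 7 every RIP library lay above (40.9% of all tested genes). A called change of at least 2-fold was found downward in 18 members, or 34.0%, against 19.7% of all genes, and upward in 2 members, or 3.77%, against 15.1%. Together the members took 0.198% to 0.203% of the reads in RIP libraries and 0.360% to 0.371% in inputs.

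TMM scaling sets the fold changes against the average gene. Under plain library-size scaling the median of all tested genes moved to -0.26 and that of the members to -1.03, with 44 members depleted and 7 enriched (50.4% and 32.0% of all tested genes). In a test against a 1.5-fold change 30 members were depleted and 5 enriched, against 26.1% and 23.1% of all tested genes. The direction of most single members did not turn under these settings, and those that did are named below.

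**Figure D1:**
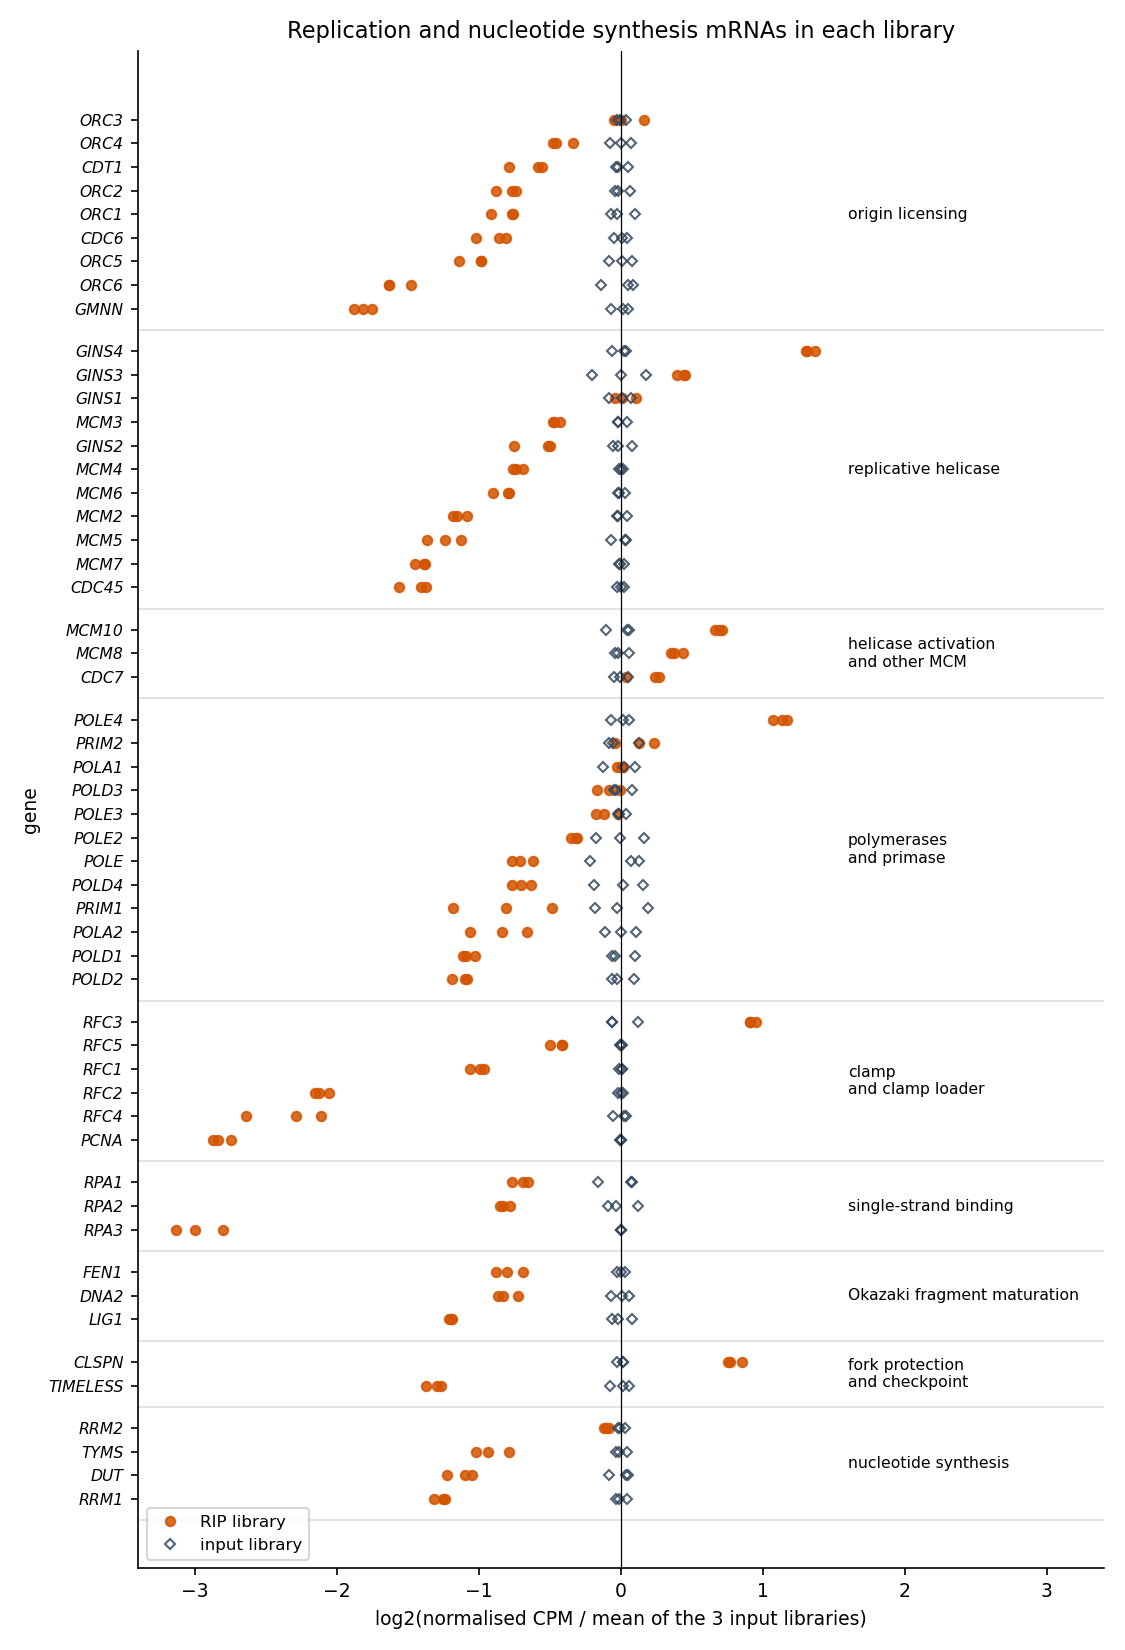
Normalised CPM of each of the 53 genes in each library, as the log2 ratio to the mean of the 3 input libraries, grouped by role. Filled circles are RIP libraries and open diamonds input libraries, and in 39 genes all RIP circles lie to the left of all input diamonds.

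Of 9 origin licensing mRNAs 8 were depleted, or 88.9% beside 42.0% of all tested genes, and the median of their log2 fold changes was -0.82. *GMNN* encodes geminin, the inhibitor of CDT1 (chromosome 6, 24774937 to 24786099 on GRCh38). Its normalised CPM was 9.78, 10.7 and 10.2 in RIP libraries 1, 2 and 3 and 37.2, 34.3 and 36.4 in the inputs. The groups lay far apart, with a log2 fold change of -1.81 (SE 0.051, edgeR adjusted p = 7.98e-18), or 3.51-fold lower. With the trend of enrichment with gene length removed, the value for this short gene was -0.78, and *CDC6* at -1.03 was then the lowest of the 9. At the other end of the depleted members stood *ORC4*, an ATPase subunit of the origin recognition complex, at 21.3, 23.5 and 21.7 CPM in RIP and 31.3, 28.3 and 29.7 in input. It was 1.34-fold lower (log2 fold change -0.42, edgeR adjusted p = 2.48e-06), without overlap between the groups. Without the length trend *ORC4* stood at -0.79, close to *GMNN*, and *CDT1* at -0.27 was the least depleted.

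With TMM scaling the origin recognition complex was not depleted evenly. *ORC6*, its smallest subunit, was 2.98-fold lower, *ORC5* 2.04-fold, *ORC1* 1.76-fold and *ORC2* 1.73-fold. After the length trend was removed the order was different. *ORC2* then stood at -0.88, *ORC6* at -0.82, *ORC4* at -0.79, *ORC1* at -0.62 and *ORC5* at -0.57. *ORC3* stood at 46.4, 51.8 and 44.8 CPM in RIP and 46.1, 47.4 and 45.4 in input, so the groups overlapped (log2 fold change 0.043, edgeR adjusted p = 0.491). With library size alone as the scale *ORC3* was called lower, at -0.20, and with the length trend removed it was called higher, at 0.46. The loading factors *CDC6* and *CDT1* were 1.85-fold and 1.56-fold lower, from 67.7 ± 2.15 and 48.7 ± 1.43 CPM in input (mean ± SD, n = 3). *GMNN* and *CDT1*, the inhibitor and its target, therefore both had lower values in RIP, with log2 fold changes of -1.81 and -0.64, or -0.78 and -0.27 without the length trend.

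All 6 mRNAs of the MCM2 to MCM7 ring were depleted, beside 42.0% of all tested genes, by 0.46 to 1.41 on the log2 scale. *MCM7* had the lowest ratio of the ring, a 2.65-fold difference (edgeR adjusted p = 4.36e-20). *MCM5* was 2.36-fold lower, *MCM2* 2.21-fold, *MCM6* 1.77-fold and *MCM4* 1.66-fold. *MCM3*, at 108 ± 2.02 CPM in RIP and 149 ± 3.72 in input, was 1.38-fold lower and did not pass the test against a 1.5-fold change. The 6 remained depleted after the length trend was removed, with log2 fold changes of -1.48 to -0.29.

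The proteins of this ring assemble in equal numbers, but their mRNAs did not have equal levels. Levels between genes are compared as the deposited FPKM (reads divided by gene length and by library total), which are scaled by library totals. They are averages over a culture, in which fewer cells with an mRNA and less of it per cell cannot be told apart. In input *MCM4* stood at 109 ± 1.47 FPKM and *MCM6* at 19.8 ± 0.449, a 5.48-fold range. In RIP the same genes marked the ends, at 55.4 ± 1.46 and 9.43 ± 0.389 FPKM, a 5.87-fold range. *MCM7* was near *MCM3* in input, at 47.8 ± 0.866 against 50.3 ± 1.40 FPKM, and well below it in RIP, at 15.3 ± 0.482 against 31.0 ± 0.695.

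The other helicase subunits were split. *CDC45*, which joins the ring to GINS, had 7.47, 6.55 and 7.30 CPM in RIP and 19.4, 19.0 and 19.6 in input. This was the lowest ratio among the helicase genes, 2.73-fold lower (log2 fold change -1.45, SE 0.059, edgeR adjusted p = 4.06e-14). With the length trend removed it stood at -0.87, and *MCM7* at -1.48 was then the lowest. *GINS4* (chromosome 8, 41529261 to 41545030) went the other way, at 51.3, 53.6 and 51.6 CPM in RIP and 21.1, 21.4 and 19.9 in input. With TMM scaling it had the highest ratio of all 53 members, 2.51-fold higher (log2 fold change 1.33, SE 0.038, edgeR adjusted p = 8.26e-17).

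The 4 GINS proteins form one complex, yet their mRNAs lay on both sides of input. *GINS3* was 1.35-fold higher and *GINS2* 1.49-fold lower. Their log2 fold changes of 0.43 and -0.58 became 0.92 and -0.19 after the length trend was removed (edgeR adjusted p = 0.0455 for *GINS2*). Neither gene was called in the test against a 1.5-fold change. Under library-size scaling *GINS3* stood at 0.19 (edgeR adjusted p = 0.0360). *GINS1* was at 85.6, 91.8 and 82.5 CPM in RIP and 89.3, 80.4 and 85.5 in input, overlapping values that gave a log2 fold change of 0.027 (edgeR adjusted p = 0.621). It was called lower under library-size scaling (-0.21). On FPKM, the ratio of *GINS4* to *GINS2* was 1.99, 2.11 and 2.40 in RIP and 0.591, 0.558 and 0.571 in input. Within a library this ratio does not depend on library scaling, but the length trend was not removed from it. Without that trend the log2 fold changes were 1.08 for *GINS4* and -0.19 for *GINS2*. *GINS4* was thus the less abundant of the pair per length in every input and the more abundant in every RIP library.

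The 3 genes that act around helicase activation or outside the replicative ring were all enriched, by modest factors. The enriched share of all tested genes was 40.7%. In the test against a 1.5-fold change only *MCM10* of the 3 was enriched. *MCM10*, which helps to activate the helicase, had 59.3, 57.3 and 58.6 CPM in RIP and 33.7, 37.7 and 37.3 in input, 1.61-fold higher (edgeR adjusted p = 1.46e-11). *MCM8*, an MCM family member known for homologous recombination, had 25.6, 26.8 and 25.3 CPM in RIP and 20.6, 19.5 and 19.2 in input, 1.31-fold higher (edgeR adjusted p = 8.11e-06). *CDC7* had 27.0, 27.5 and 23.4 in RIP and 23.7, 22.8 and 22.1 in input, and here the groups overlapped, with a log2 fold change of 0.19 (edgeR adjusted p = 0.0179). The *CDC7* call ended without RIP replicate 1, RIP replicate 2 or input replicate 3, at adjusted p = 0.0706, 0.0759 and 0.0727, and its sign turned under library-size scaling (-0.054). The *MCM8* call ended after removal of the length trend (-0.023).

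Among 12 polymerase and primase mRNAs 7 were depleted (58.3%, beside 42.0% of all tested genes). Of the others 1 was enriched (8.33% of the 12, beside 40.7%) and 4 were not called. With the length trend removed 6 of the 12 were depleted and 3 enriched, where 40.0% and 40.2% of all tested genes were. Under library-size scaling 10 were depleted (83.3%, beside 50.4% of all tested genes). The median of the 12 on the log2 scale was -0.51 with TMM scaling. *POLD2*, the second subunit of polymerase delta (chromosome 7, 44114680 to 44124325), had 79.0, 74.2 and 80.0 CPM in RIP and 166, 180 and 162 in input. It had the lowest ratio of the group, 2.18-fold lower (edgeR adjusted p = 3.69e-17), and the catalytic subunit *POLD1* was 2.11-fold lower. With the length trend removed *POLD2* stood at -0.90 and *POLD1* at -1.10, and *POLE* at -1.12 was then the lowest. *POLD3* did not pass, with 37.8, 35.9 and 33.8 CPM in RIP and 36.8, 37.1 and 40.2 in input (edgeR adjusted p = 0.201), but was called lower under library-size scaling (-0.32). *POLD4* was counted at only 2.26 ± 0.106 CPM after RIP and 3.67 ± 0.432 in input, and whether reads at its locus were assigned to other gene models was not tested. It was the one member with a mean under 5 CPM and was called lower, but not after the length trend was removed (-0.026).

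Polymerase epsilon had the widest spread of log2 fold changes among the polymerases. Its catalytic subunit *POLE* was 1.62-fold lower, from 50.8 ± 6.33 to 31.4 ± 1.63 CPM, and *POLE2* was lower by a log2 fold change of -0.32. *POLE2* did not pass without input replicate 2 (adjusted p = 0.0750), and turned to 0.23 after removal of the length trend. *POLE3*, a histone-fold subunit, had 59.0, 63.1 and 56.7 CPM in RIP and 63.2, 65.5 and 62.9 in input, and was not called (log2 fold change -0.099, edgeR adjusted p = 0.0725). It was called lower under library-size scaling (-0.34) and higher with the length trend removed (0.48). *POLE4*, its histone-fold partner, had 8.58, 8.79 and 8.23 CPM in RIP and 3.95, 3.73 and 4.06 in input, 2.18-fold higher (log2 fold change 1.13, SE 0.045, edgeR adjusted p = 1.29e-09). The ratio of *POLE4* to *POLE3* on FPKM was 0.287 ± 0.00701 in RIP and 0.123 ± 0.00790 in input.

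In the complex of polymerase alpha and primase, the larger subunit of each pair was not called and the smaller was depleted with TMM scaling. *POLA1*, the catalytic subunit, had 42.7, 42.9 and 41.8 CPM in RIP and 39.1, 43.1 and 45.5 in input, with a log2 fold change of -0.0033 (edgeR adjusted p = 0.960). It was called lower under library-size scaling (-0.24) and with the length trend removed (-0.33). *PRIM2*, the large primase subunit, had 40.0, 43.0 and 35.5 in RIP and 40.0, 34.6 and 35.2 in input (edgeR adjusted p = 0.127). It was called higher without RIP replicate 3 (0.19) and without input replicate 1 (0.18), and stood at -0.13 under library-size scaling. *POLA2* was 1.80-fold and the catalytic primase subunit *PRIM1* 1.73-fold lower, at only 4.23 ± 0.586 and 8.08 ± 1.94 CPM in RIP. *PRIM1* had the largest standard error of the members (0.228 on the log2 scale) and was not called after removal of the length trend (-0.23).

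The sliding clamp and its loader held several of the lowest ratios. *PCNA* (chromosome 20, 5114953 to 5126622) had 24.1, 25.7 and 23.5 CPM in RIP and 172, 173 and 173 in input. The log2 fold change was -2.82 (SE 0.039, edgeR adjusted p = 1.29e-24). Among the loader subunits *RFC4* was 4.98-fold lower, *RFC2* 4.31-fold, *RFC1* 2.01-fold and *RFC5* 1.36-fold. With the length trend removed *RFC4*, *RFC2* and *RFC1* lay close together, at -1.30, -1.32 and -1.18, and *RFC5* was not called (0.015). *RFC3*, of the same 5-subunit complex, had 41.2, 42.5 and 41.2 CPM in RIP and 23.8, 21.1 and 21.0 in input. It was 1.89-fold higher (log2 fold change 0.92, SE 0.062, edgeR adjusted p = 7.14e-13), with every RIP library above every input.

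**Figure D2:**
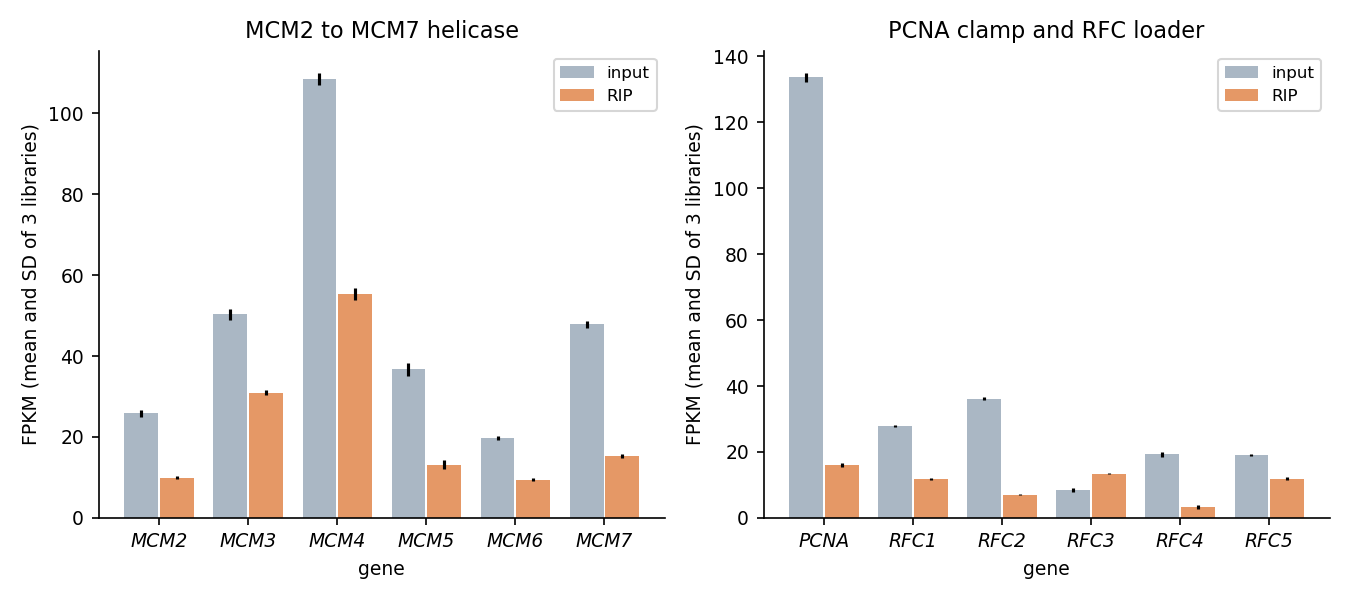
FPKM of the MCM2 to MCM7 genes (left) and of the clamp and its loader (right), as bars for the mean of 3 input and 3 RIP libraries with the SD. RIP bars are lower than input bars for every gene drawn except RFC3, which is at 8.35 FPKM in input and 13.4 in RIP.

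The order of levels within the loader was different in the recovered RNA. In input *RFC3* was the least abundant subunit, at 8.35 ± 0.554 FPKM, and *RFC2* the most, at 36.1 ± 0.441. In RIP *RFC3* was the most abundant, at 13.4 ± 0.170 FPKM, above *RFC5* and *RFC1* at 11.8 ± 0.458 and 11.8 ± 0.395, and *RFC4* the least, at 3.24 ± 0.574. *RFC5* and *RFC1* did not differ beyond their spread there. The ratio of *RFC3* to *RFC2* was 1.89, 1.86 and 1.94 in RIP and 0.251, 0.225 and 0.218 in input, an 8.20-fold change. The length trend was not removed from it, and without that trend the log2 fold changes were 1.22 for *RFC3* and -1.32 for *RFC2*.

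All 3 subunits of RPA, the single-strand binding protein, were depleted, beside 42.0% of all tested genes. *RPA3*, the smallest subunit (chromosome 7, 7636518 to 7718607), had 4.89, 5.61 and 4.45 CPM in RIP and 39.1, 39.1 and 39.2 in input. This was the lowest ratio of the 53 members, 7.79-fold lower (log2 fold change -2.96, SE 0.096, edgeR adjusted p = 7.13e-21). *RPA1*, the large DNA-binding subunit, had 49.3, 50.5 and 46.8 CPM in RIP and 71.1, 84.1 and 83.5 in input, 1.63-fold lower (edgeR adjusted p = 3.36e-11). *RPA2* had 14.3, 14.8 and 14.2 CPM in RIP and 24.9, 27.7 and 23.9 in input, 1.77-fold lower (edgeR adjusted p = 1.82e-10), but did not pass after removal of the length trend (-0.15). In input the 3 subunits had similar levels, between 14.1 ± 1.16 and 19.8 ± 0.138 FPKM, a 1.41-fold range. In RIP the range was 4.34-fold, with *RPA1* at 9.28 ± 0.330 and *RPA3* at 2.14 ± 0.241 FPKM.

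The enzymes that finish lagging-strand fragments were all depleted, beside 42.0% of all tested genes. *FEN1*, the flap endonuclease, had 37.9, 33.3 and 35.1 CPM in RIP and 59.9, 62.3 and 61.2 in input, 1.73-fold lower (edgeR adjusted p = 1.21e-12). *LIG1*, the DNA ligase that seals them, had 11.8, 11.9 and 12.0 in RIP and 26.1, 28.8 and 27.0 in input, 2.29-fold lower (edgeR adjusted p = 6.23e-14). *DNA2*, a nuclease and helicase, had 15.6, 14.5 and 14.1 in RIP and 26.7, 25.9 and 24.5 in input, 1.75-fold lower (edgeR adjusted p = 1.49e-10). Every RIP library of these genes lay below every input library, as was so for 42.2% of all tested genes. After removal of the length trend *FEN1* stood at -0.14, while *LIG1* and *DNA2* kept log2 fold changes of -1.13 and -0.89.

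The fork protection genes were opposed. *CLSPN* encodes claspin, the adaptor that carries the replication checkpoint signal to CHK1 (chromosome 1, 35720213 to 35769978). It had 166, 178 and 167 CPM in RIP and 99.2, 96.4 and 99.0 in input, 1.73-fold higher (log2 fold change 0.79, SE 0.034, edgeR adjusted p = 5.83e-15). Without the length trend its log2 fold change was 0.32, still an enriched call. *TIMELESS*, a fork protection protein, had 17.1, 16.8 and 15.9 CPM in RIP and 39.1, 41.5 and 42.8 in input, 2.48-fold lower (log2 fold change -1.31, edgeR adjusted p = 8.30e-16). The groups overlapped in neither gene. Over all tested genes every RIP library lay above every input in 40.9% and below in 42.2%. The ratio of *CLSPN* to *TIMELESS* on FPKM was 5.71 ± 0.281 in RIP and 1.33 ± 0.0702 in input.

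The nucleotide enzymes were all called lower, beside 42.0% of all tested genes, but by very different amounts. *RRM1*, the large subunit of ribonucleotide reductase (chromosome 11, 4094685 to 4138932), had 47.6, 49.6 and 50.1 CPM in RIP and 116, 117 and 122 in input. It was 2.41-fold lower (log2 fold change -1.27, SE 0.032, edgeR adjusted p = 1.67e-18). *RRM2*, the small subunit whose level limits the enzyme through the cell cycle, had 181, 183 and 179 CPM in RIP and 198, 193 and 192 in input. The groups did not overlap, but the difference was small, 1.07-fold (log2 fold change -0.10, edgeR adjusted p = 0.0182). The *RRM2* call ended with RLE scaling (adjusted p = 0.0671), in DESeq2 (adjusted p = 0.0697) and without RIP replicate 1 or 3 (adjusted p = 0.0662 and 0.0679).

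Per length, the ratio of *RRM2* to *RRM1* was 3.20, 3.11 and 3.00 in RIP and 1.44, 1.38 and 1.32 in input, a 2.24-fold change. *DUT*, which removes dUTP, was 2.17-fold lower, from 76.3 ± 3.83 to 35.1 ± 2.19 CPM. *TYMS*, thymidylate synthase, was 1.88-fold lower, from 58.4 ± 1.61 to 31.1 ± 2.59 CPM, but stood at -0.038 and was not called after removal of the length trend. The ratios of paired genes given here were chosen after their values were seen and carry no test. None of them was corrected for the trend with gene length.

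Members with higher levels in input tended to have lower ratios. The Spearman correlation between input FPKM and log2 fold change was -0.42 over the 53 genes, which share the same 6 libraries, and input values enter both quantities. It was -0.34 with the length trend removed. *PCNA* was the most abundant member in input, at 134 ± 1.33 FPKM, followed by *MCM4*, *POLD2* at 60.5 ± 3.71 and *RRM2* at 51.8 ± 0.578. In RIP *PCNA* ranked 11 of 53, at 16.0 ± 0.677 FPKM, and *MCM4*, *RRM2* at 40.9 ± 0.398 and *MCM3* led. *RPA3* moved from rank 19 to 51 and *RFC4* from 22 to 40, whereas *GINS4* moved from 49 to 26 and *RFC3* from 38 to 13.

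**Figure D3:**
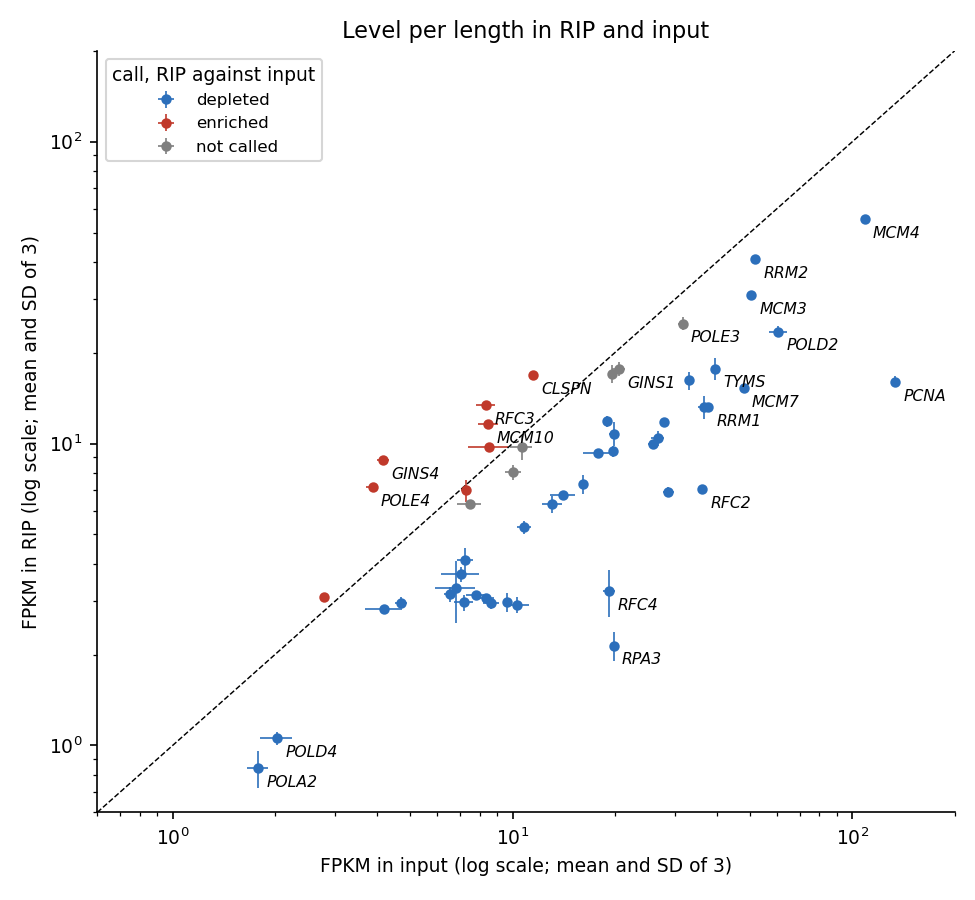
FPKM in RIP against FPKM in input for the 53 genes, both on log scales, with the mean and SD of 3 libraries and the colour giving the call. Points below the dashed line of equal FPKM are lower in RIP. PCNA lies farthest to the right, at 134 FPKM in input and 16.0 in RIP.

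Gene length moved with these ratios. Over all 12856 tested genes the Spearman correlation between length and log2 fold change was 0.44, and over the 53 members it was 0.33. The members were somewhat shorter than the tested genes, with a median length of 3411 nt against 3981. The members with the lowest ratios included short genes, such as *PCNA* at 1403 nt, *RFC4* at 1385 and *GMNN* at 1359. The shortest member, *POLE4* at 1097 nt, was nevertheless enriched. *CLSPN*, the longest at 9275 nt, was enriched (0.79, or 0.32 without the length trend) and *POLE*, next at 7823 nt, depleted.

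Within length classes, which were set after the values were seen, the members' depleted share lay above that of all genes. Below 2000 nt 8 of 9 members were depleted (88.9%), against 70.5% of all genes. From 2000 to under 3000 nt 9 of 13 were depleted (69.2%), against 57.5%. From 3000 to under 4500 nt 15 of 18 were depleted (83.3%), against 41.0%, and at 4500 nt or more 7 of 13 (53.8%), against 25.3%. The classes hold few members, and no test was made of these shares.

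**Figure D4:**
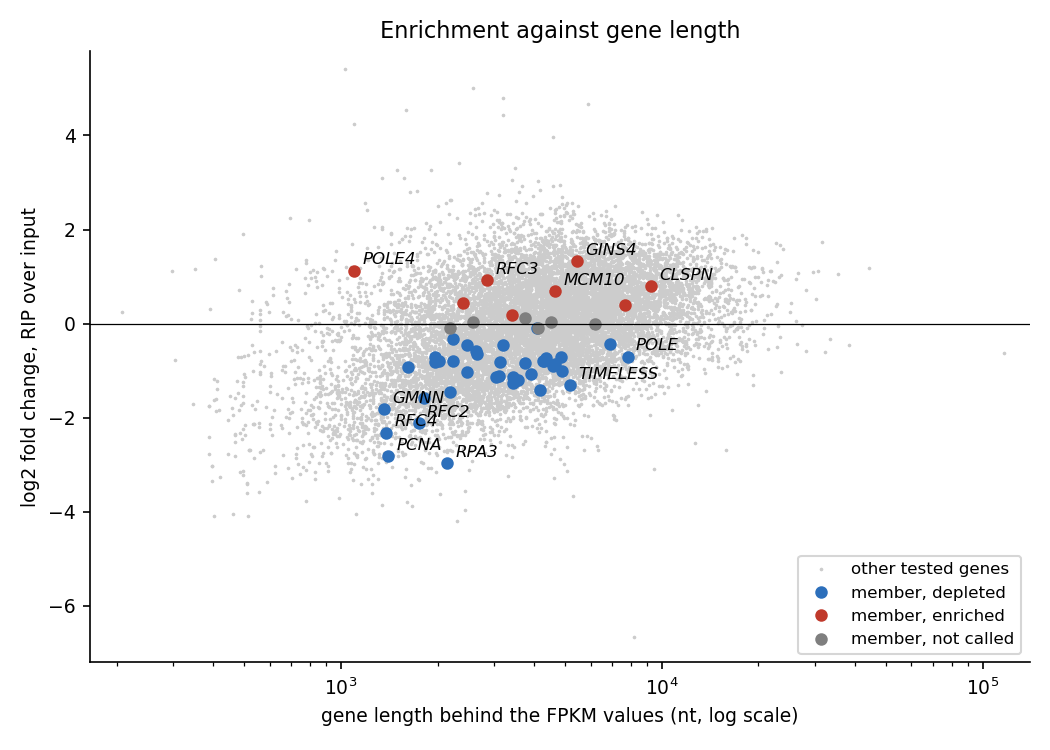
Log2 fold change of RIP over input against the gene length behind the FPKM values (log scale) for all 12856 tested genes in grey and the 53 members in colour by call. The cloud rises with length, and depleted members appear at all lengths from 1359 to 7823 nt.

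When the trend with length was removed from each library, 35 members were depleted (66.0%, beside 40.0% of all tested genes) and 10 enriched (18.9%, beside 40.2%). The median log2 fold change of the members was -0.62 and that of all genes -0.0012. The Spearman correlation with length over the members was then -0.088. *RPA3* kept the lowest value, at -2.36 (edgeR adjusted p = 4.33e-18), followed by *PCNA* at -1.81, *TIMELESS* at -1.52 and *MCM7* at -1.48. *RFC2* and *RFC4* stood at -1.32 and -1.30, close to *RFC1* at -1.18. *POLE4* had the highest value, at 2.32 (edgeR adjusted p = 2.18e-15), ahead of *RFC3* at 1.22, *GINS4* at 1.08 and *GINS3* at 0.92. The depleted call ended for *PRIM1*, *POLD4*, *RFC5*, *RPA2* and *TYMS*, and *POLE2* changed to an enriched call. *POLA1* and *POLD3* became depleted, at -0.33 and -0.15, and *POLE3* enriched, at 0.48.

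**Figure D5:**
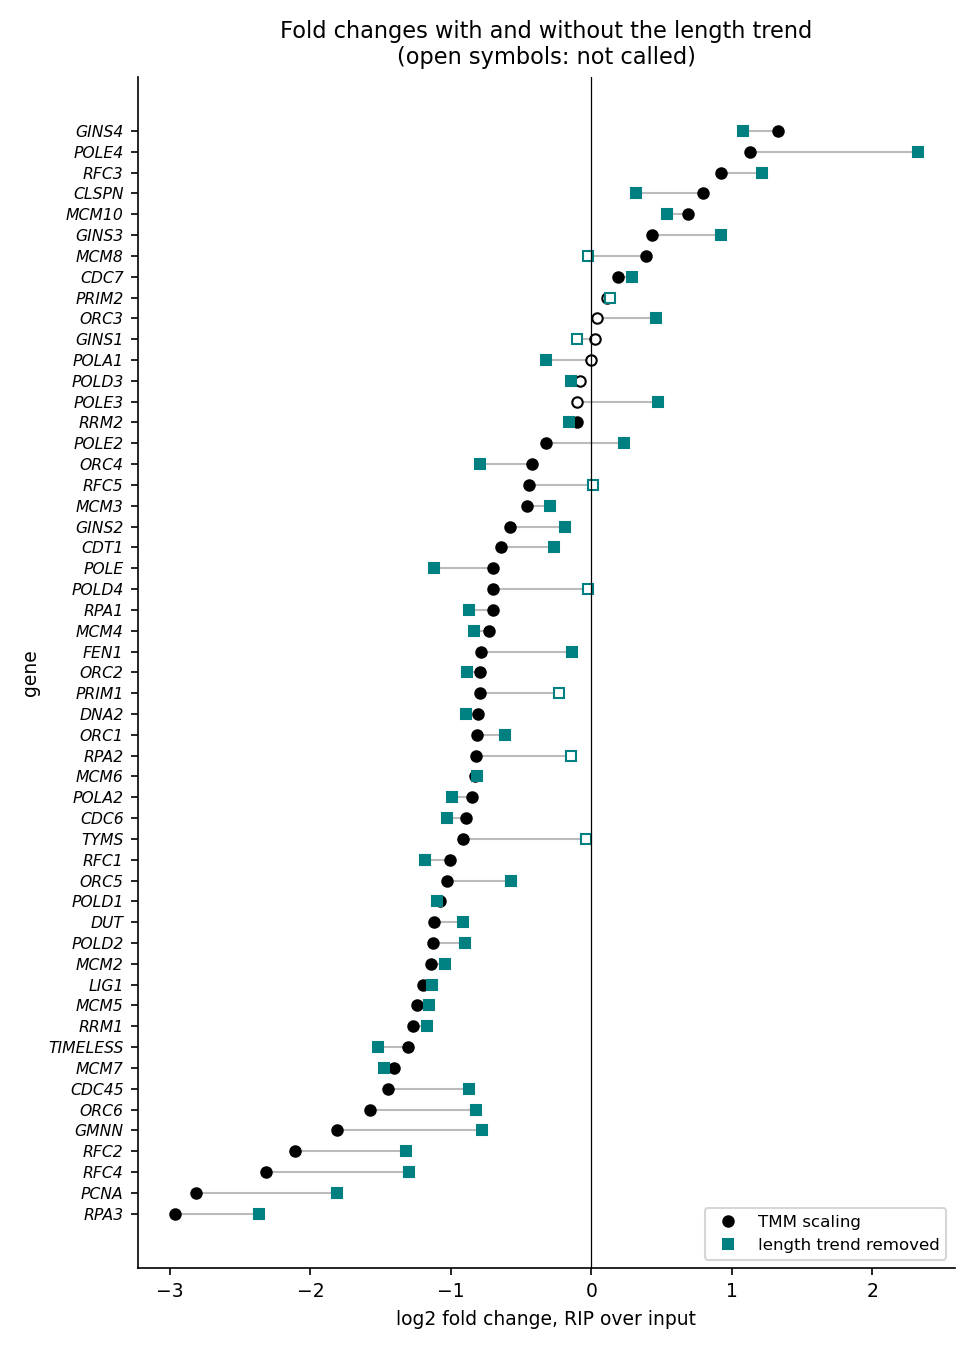
Log2 fold change of each member with TMM scaling (circles) and with the trend of each library with gene length removed (squares), with open symbols where the gene was not called. Short genes such as PCNA (-2.82 to -1.81) and POLE4 (1.13 to 2.32) moved up and long genes such as POLE (-0.70 to -1.12) moved down.

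Other replication factors, a list of 38 genes of which 37 were tested, included 25 depleted, 11 enriched and 1 uncalled gene (median on the log2 scale -0.52). These are 67.6% and 29.7% of the list, beside 42.0% and 40.7% of all tested genes. Scaled by library size, 26 were depleted and 7 enriched (70.3% and 18.9%, beside 50.4% and 32.0%). Without the length trend 22 were depleted and 10 enriched (59.5% and 27.0%, beside 40.0% and 40.2%). *RNASEH2A*, the catalytic subunit of the nuclease that removes RNA from DNA, was 4.34-fold lower, at 8.63 ± 0.653 CPM in RIP and 37.6 ± 1.89 in input. This gene is 1164 nt long, and its log2 fold change of -2.12 became -0.96 without the length trend. *LRWD1*, which binds the origin recognition complex, was 3.44-fold lower, at 5.74 ± 1.10 and 19.8 ± 1.11 CPM. *UHRF1*, which brings maintenance DNA methylation to newly copied DNA, was 1.93-fold higher, at 138 ± 12.9 and 71.6 ± 5.56 CPM. *DBF4B*, an activator of CDC7, was 1.85-fold higher, at 20.0 ± 1.55 and 10.8 ± 0.557 CPM.

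Other nucleotide enzymes, a list of 40 of which 39 were tested, included 26 depleted, 10 enriched and 3 uncalled genes (median on the log2 scale -0.46). These are 66.7% and 25.6% of the list, beside 42.0% and 40.7% of all tested genes. The length correction gave 19 depleted and 14 enriched (48.7% and 35.9%, beside 40.0% and 40.2% of all tested genes), and a median of -0.10. *DTYMK* and *DGUOK*, kinases of deoxynucleotide supply, were 4.71-fold and 4.35-fold lower, and both are short, at 1051 and 1144 nt. Without the length trend their log2 fold changes were -1.01 and -0.95. *PAICS*, an enzyme of purine synthesis, had 3135, 3386 and 3033 CPM in RIP and 613, 593 and 606 in input. It was 5.27-fold higher (log2 fold change 2.40, edgeR adjusted p = 1.88e-24), above the 53 members with TMM scaling. With the length trend removed it stood at 2.04, below *POLE4* at 2.32. *PFAS*, of the same pathway, was 2.14-fold higher. Named after their values were seen, the other enzymes of that pathway went both ways, with *PPAT* 1.47-fold higher, *GART* 1.97-fold lower and *ATIC* 2.39-fold lower. The spans of *PPAT* and *PAICS* overlap on chromosome 4, and whether reads were shared between them was not tested. *ADSL*, counted at 3.69 ± 0.235 CPM after RIP, was not called, and whether other gene models took its reads was not tested.

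Reads of overlapping genes and of near-identical copies may have been split or shared, since the sources used here do not give the counting rules. The spans of 10 members overlap another protein-coding gene of the RefSeq table, namely *ORC1*, *ORC3*, *ORC4*, *MCM7*, *GINS2*, *PRIM2*, *POLE3*, *RFC5*, *RPA3* and *TYMS*. Pseudogenes named after a member are listed for 12 members, with 8 for *DUT*, 4 for *PCNA* and 3 each for *RRM2* and *RPA2*. *RPA3* and *TYMS* have 2 each, and *ORC1*, *POLD2*, *POLE4*, *RFC3*, *RFC5* and *FEN1* have 1 each. The part of either in the values of these genes was not tested.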

How the data were processed

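The authors deposited raw read counts per gene symbol and FPKM values for the same genes, with values for 3 RIP and 3 input libraries of 786-O cells. Per the submitters' processing notes, fastp 0.23.2, STAR 2.7.10a, featureCounts and DESeq2 were used with hg38. The annotation and strand setting were not given in the sources used. The deposited FPKM equal the counts scaled by 1 whole length per gene and by column totals, and these lengths served as gene lengths.

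Genes kept by filterByExpr were scaled with TMM and tested with edgeR 4.0.16 (quasi-likelihood, robust, group only) in R 4.3.3, with calls at an adjusted p under 0.05. Levels are CPM after TMM scaling. Each SE was computed from the variances of log2 CPM within the groups. The fit was tested on simulated data with far fewer changed genes, balanced in direction. That setting does not cover a change in most genes, as called here. The length trend was a robust loess curve (span 0.3) per library, used as offsets. Values in every library are given for the highest and lowest called member of each role, for small roles and for uncalled members, and up to 2 called genes per direction are named from each other list. Members, lists and tests were chosen with earlier results of these data known. Coordinates are RefSeq spans on GRCh38.p14. Replicates of one group differed by more than sampling noise (chi-square per gene 3.42 to 8.36). Alternatives were RLE and library-size scaling, DESeq2 1.42.0, no filter, a filter of 5 CPM in 3 libraries, a 1.5-fold test, a replicate block, the length correction and leaving out each library.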

Additional observations from a re-analysis of the deposited data

How the results depend on the processing

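The counts of depleted members ranged from 30 to 44 over the alternatives. Leaving out each library in turn gave 38 to 40 depleted and 7 to 9 enriched members and a median log2 fold change of -0.80 to -0.75. Library-size scaling gave a median of -1.03 and the length correction one of -0.62. The test against a 1.5-fold change, which is stricter by construction, left 2973 enriched and 3358 depleted genes in all (23.1% and 26.1%). It left 5 enriched members (9.43%) and, of 37 other replication factors, 4 enriched and 13 depleted (10.8% and 35.1%). In the same test 14 of 39 other nucleotide enzymes were depleted and 3 enriched, which are 35.9% and 7.69% of that list. With library size alone as the scale 7 other replication factors were enriched (18.9%, beside 32.0% of all tested genes). Under 1 or more alternatives 9 members had the opposite sign. With library size alone as the scale these were *ORC3* (-0.20), *GINS1* (-0.21), *CDC7* (-0.054) and *PRIM2* (-0.13), and with the length trend removed *GINS1* (-0.10), *MCM8* (-0.023), *POLE2* (0.23), *POLE3* (0.48) and *RFC5* (0.015). Leaving out 1 library at a time gave -0.018 to 0.089 for *ORC3* and -0.013 to 0.066 for *GINS1*. *POLA1*, at -0.0033, turned to 0.021 with RLE scaling and in DESeq2 and to 0.00090 without a filter, and ranged from -0.063 to 0.045 when 1 library was left out. The cause was not tested. Of 741 single-member values under an alternative, 689 kept direction and call. *POLE3* was called lower under library-size scaling (-0.34), the 5 CPM filter (-0.11) and without RIP replicate 2 (-0.14). Equal replicate numbers did not deviate together (r = 0.036, -0.046 and 0.035). Such values cannot show whether RIP and input libraries of one number came from the same culture. With the replicate number as a block 8 members were enriched and 39 depleted, no member's call changed, and 5210 genes were enriched and 5390 depleted in all. *POLD4* had the fewest reads of the members, 74 in its lowest library.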
